A study of Mus musculus with 36 samples.

Results

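Of the 9 genes described here, 8 encode enzymes of heme synthesis: Alas1, Alas2, Alad, Uros, Urod, Cpox, Ppox and Fech. Slc25a37 encodes mitoferrin-1, which carries iron into mitochondria. The members were chosen by name, and their introns were those of GENCODE M21 that matched the lists of introns deposited for every library. They made up 9 of 31890 genes, 81 of 219945 introns, and were read in all 36 libraries.

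The pathway starts and ends in the mitochondrion. ALAS1 in most cells and ALAS2 in erythroid cells join glycine and succinyl-CoA, and ALAD, UROS and UROD act in building the ring system in the cytosol. CPOX and PPOX oxidise it, and FECH, in the inner membrane of the mitochondrion, inserts the iron that mitoferrin-1 brings in. Red cell precursors make most of the heme of the body, and retention of introns in transcripts of heme and iron genes is known in late red cell precursors.

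The libraries addressed what is lost with Zrsr2, which encodes a protein of the minor spliceosome that reads the 3′ end of U12-type introns, and with its relative Zrsr1. All mice were C57BL/6. Male littermates, 3 of them Zrsr2-deficient (KO) and 3 wild type (WT), gave sorted progenitors of 3 kinds: MEP (megakaryocyte-erythroid), GMP (granulocyte-monocyte) and CMP (common myeloid). Murine embryonic fibroblasts (MEF) were made from 3 KO and 3 WT male embryos. Lin-Kit+ bone marrow cells, cultured after isolation, came from KO or WT mice and carried hairpin sh1 or sh10 against Zrsr1, or a control hairpin, with 1 library per genotype and hairpin in each of 2 experiments. The sources used here give no ages, no description of the knockout allele and no number of mice behind a Lin-Kit+ culture.

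Every value is built from reads across or beside introns. Spliced reads were summed over the introns of a gene and given as CPM, spliced counts scaled to a total of 1e+06 per library. Spliced reads totalled 43514139 to 61124920 per MEF library, 44083233 to 84832431 per progenitor library and 30481450 to 43345548 per Lin-Kit+ library. Zrsr2 itself had 0 to 0.08 CPM in KO progenitors, against 23.8 to 34.2 CPM in WT progenitors, and 0 to 0.46 CPM in KO MEF, against 23.7 to 28.7 CPM in WT MEF. In Lin-Kit+ cells Zrsr2 had 0.0887 to 1.52 CPM in KO and 19.2 to 25.9 CPM in WT. No intron of Zrsr1 is listed, and its knockdown could not be checked. Of 7 early erythroid genes, 6 are listed in the tables. These, Gata1 and Klf1 among them, summed to 4989 to 5905 CPM in WT MEP, to 8.99 to 19.7 CPM in WT GMP and to 632 to 1474 CPM in WT CMP, and 7 granulocyte-monocyte genes to 26452 to 31733 CPM in WT GMP. The megakaryocyte side of the MEP label was not borne out by its markers. Of 7 megakaryocyte genes 6 are listed, summing to 34.8 to 63.4 CPM in WT MEP, 136 to 198 CPM in WT GMP and 812 to 1152 CPM in WT CMP, and 5 were called lower in MEP than in CMP. Fibroblast genes summed to 57621 to 68001 CPM in WT MEF, which also held 317 to 1956 CPM of macrophage genes.

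The introns that carried most unspliced RNA are printed first, because the results on retention turn on them. Protoporphyrinogen oxidase, Ppox, is a short gene on the minus strand of mm10 (chr1:171275990-171281186), and its introns 3, 4 and 5 lie between coding exons. They are shown with intron 7 of Urod, which is near Ppox introns 3 and 4 in length and spliced almost wholly. Each is printed as read from a GENCODE M21 transcript that keeps it. The capitals mark the first and last bases of each intron.
Ppox intron 3 (chr1:171280256-171280387, 132 bases): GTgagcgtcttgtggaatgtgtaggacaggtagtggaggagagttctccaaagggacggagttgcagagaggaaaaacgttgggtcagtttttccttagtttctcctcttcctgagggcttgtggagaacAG
Ppox intron 4 (chr1:171280002-171280139, 138 bases): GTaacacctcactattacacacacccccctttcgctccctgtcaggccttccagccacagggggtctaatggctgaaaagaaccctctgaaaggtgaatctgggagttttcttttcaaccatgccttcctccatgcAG
Ppox intron 5 (chr1:171279575-171279868, 294 bases): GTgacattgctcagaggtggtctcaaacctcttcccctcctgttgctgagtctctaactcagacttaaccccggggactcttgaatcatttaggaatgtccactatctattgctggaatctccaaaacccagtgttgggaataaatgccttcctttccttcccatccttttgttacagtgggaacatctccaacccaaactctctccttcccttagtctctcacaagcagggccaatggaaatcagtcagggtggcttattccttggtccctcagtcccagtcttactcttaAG
Urod intron 7 (chr4:116991494-116991620, 127 bases): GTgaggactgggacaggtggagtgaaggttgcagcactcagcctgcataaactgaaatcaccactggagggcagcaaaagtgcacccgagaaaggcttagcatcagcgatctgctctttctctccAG
The other long-retained introns are given by their ends. Ppox intron 7 (chr1:171278196-171279122, 927 bases) starts with GTaggagaacct and ends with caccgtctttcaagttttcttctcactcAG. Slc25a37 intron 2 (chr14:69247638-69249393, 1756 bases, minus strand) starts with GTattttgaaag and ends with gcgggtaattttctggagtttgttttgcAG. All 16 member introns with a sequence from a transcript started with GT and ended with AG. None of these was within 1 mismatch of the U12-type start RTATCCTT, with 2 mismatches at the fewest, in intron 1 of Alas1-202. The rest of the 81 listed member introns had no such sequence and were not searched. GC content was 50%, 51.5%, 47.6% and 48.1% in Ppox introns 3, 4, 5 and 7, 46.9% in Slc25a37 intron 2 and 53.5% in Urod intron 7. Over the 16 it ran from 45.6% in Cpox intron 4 to 61.9% in Ppox intron 10, which averaged 2.53% and 9.48% retention. Uros intron 7, at 20.9% retention, had 53.5% GC. A relation of GC content to retention was not tested.

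Short windows around the gene starts are shown for the 3 starts that held a GATA motif, since erythroid genes are known targets of GATA1. RefSeq windows (GRCm38.p6) were searched from 250 bases before to 50 after the start for AGATAA and TGATAA on both strands (TTATCT and TTATCA on the other), which never match at the same base. One or the other was present in 18.6% of 32851 windows. Of the 10 windows of 7 members, 3 held a motif. The 130 bases from 100 before the start are printed with the motif in capitals.
Alas2 (chrX:150547317-150547446, plus strand): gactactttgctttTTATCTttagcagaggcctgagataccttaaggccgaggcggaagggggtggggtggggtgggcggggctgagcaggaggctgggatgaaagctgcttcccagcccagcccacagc
Cpox (chr16:58670108-58670237, plus strand): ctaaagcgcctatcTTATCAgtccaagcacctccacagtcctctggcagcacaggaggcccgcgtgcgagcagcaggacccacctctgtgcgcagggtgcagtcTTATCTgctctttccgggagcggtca
Uros, internal start (chr7:133702471-133702600, minus strand): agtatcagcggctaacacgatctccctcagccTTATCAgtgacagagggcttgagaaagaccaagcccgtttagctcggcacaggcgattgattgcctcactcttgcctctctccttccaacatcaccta
The motif of Alas2 lies at base -86 and those of Cpox at -86 and +5. That of Uros lies at -68 from a start inside the gene. The letters alone do not show that a factor binds there.

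MEP had the highest levels of most of the enzymes. Of the 9 genes, 6 were higher in WT MEP than in both WT GMP and WT CMP: Alad, Uros, Urod, Cpox, Ppox and Fech, by 2.32-fold to 7.12-fold over CMP. Alas1 and Slc25a37 were lower in MEP than in both, and Alas2 did not pass the test in either comparison. In MEP against CMP, 21.2% of 17563 genes were called higher and 25.5% lower, by edgeR's quasi-likelihood test with Benjamini-Hochberg adjusted p under 0.05. In MEP against GMP, 21.1% were called higher and 24.8% lower. The median log2 change of the 9 was 1.44 over CMP and 1.52 over GMP, where it was -0.05 and -0.03 over all genes tested. In bulk RNA, fewer cells of a type and less RNA per cell cannot be told apart.

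**Figure D1:**
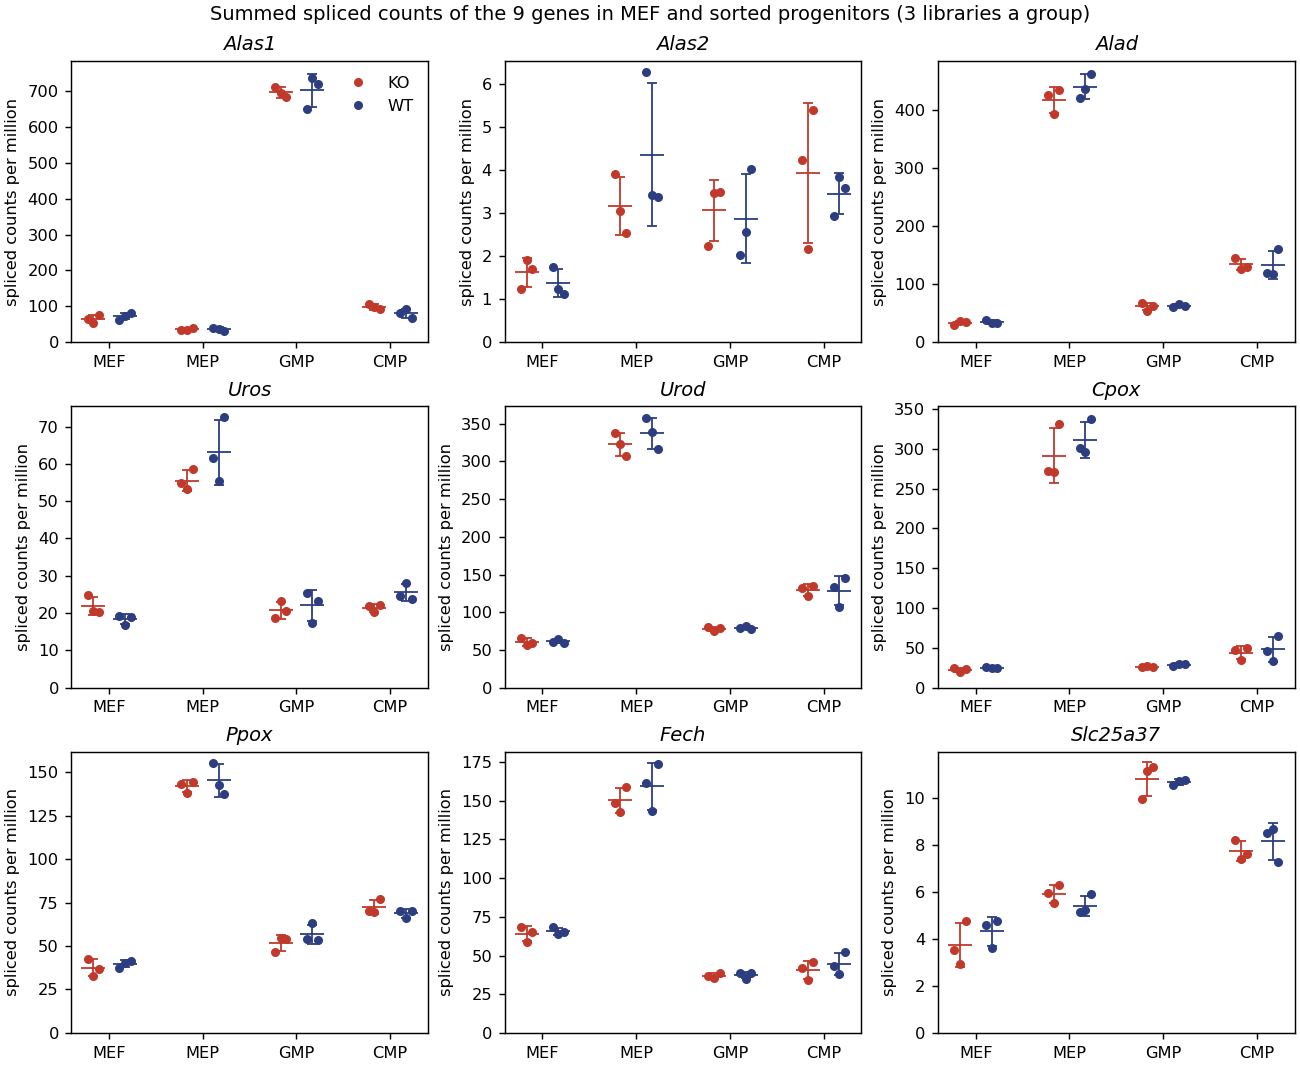
Spliced reads of each member in CPM (vertical axes, linear, from 0) in MEF, MEP, GMP and CMP, with KO (red) left of WT (blue); points are libraries, bars means and error bars SD (n = 3 each). Alad, Uros, Urod, Cpox, Ppox and Fech stand highest in MEP of both genotypes, and Alas1 stands highest in GMP.

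The first step split by cell type. Alas1 (chr9:106233455-106248654) had 40.8, 37.7 and 31.4 CPM in WT MEP, 650, 737 and 718 CPM in WT GMP and 80.3, 92.8 and 68.5 CPM in WT CMP. The 3 types did not overlap, and MEP was 19.1-fold below GMP. On the log2 scale Alas1 changed by -4.26 ± 0.12 (SE) in MEP against GMP (edgeR adjusted p = 5.03e-13), by -1.0005 ± 0.11 in MEP against CMP (1.34e-06) and by 3.26 ± 0.12 in GMP against CMP (3.94e-11). The GMP libraries of KO mice, with 712, 693 and 683 CPM, lay in the same range. WT Lin-Kit+ cells with the control hairpin, prepared with another kit, had 425 and 345 CPM.

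Alas2, the erythroid form on the X chromosome (chrX:150547375-150570638), was nearly silent in these sorts. It had 6.28, 3.43 and 3.39 CPM in WT MEP, 2.04, 2.57 and 4.03 CPM in WT GMP and 2.93, 3.85 and 3.59 CPM in WT CMP, and the types overlapped. The change in MEP against GMP was 0.60 ± 0.34 (edgeR adjusted p = 0.174) and in MEP against CMP 0.47 ± 0.34 (0.292). Late erythroid markers, globins among them, were also low beside the early ones, with 276 to 426 CPM in WT MEP. The gene lies within the annotation of Apex2 on the other strand, and none of its 9 listed introns reached a mean of 20 reads.

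ALAD and UROD, of the cytosolic steps, moved with MEP. Alad (chr4:62509169-62519918), the second step, had 420, 437 and 463 CPM in WT MEP, 60.7, 65.6 and 61.8 CPM in WT GMP and 119, 118 and 160 CPM in WT CMP. MEP stood above GMP by 2.81 ± 0.11 (log2, adjusted p = 7.9e-12) and above CMP by 1.87 ± 0.11 (1.1e-09), with GMP below CMP by -0.94 ± 0.11 (6.91e-06). Urod (chr4:116989965-116994413), which trims the side chains of the ring, had 357, 338 and 316 CPM in WT MEP, 79.4, 81.3 and 77.9 CPM in WT GMP and 134, 107 and 145 CPM in WT CMP. Its order was that of Alad, with 2.09 ± 0.09 in MEP over GMP (1.05e-11), 1.53 ± 0.09 in MEP over CMP (6.43e-10) and -0.56 ± 0.08 in GMP against CMP (0.000112).

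Uros, which closes the ring between those steps, had the lowest level per listed intron among the enzymes that rose in MEP. Uros (chr7:133686243-133710072) had 61.5, 55.4 and 72.6 CPM in WT MEP, 25.4, 17.4 and 23.3 CPM in WT GMP and 24.6, 28.1 and 23.8 CPM in WT CMP. MEP did not overlap with the other types, while GMP and CMP overlapped. The change was 1.52 ± 0.13 in MEP over GMP (adjusted p = 5.52e-08), 1.44 ± 0.13 in MEP over CMP (1.43e-07) and -0.08 ± 0.13 in GMP against CMP (0.723).

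Of the 9 genes, Cpox rose most in MEP. Coproporphyrinogen oxidase, Cpox (chr16:58670292-58717636), had 301, 295 and 337 CPM in WT MEP, 27.1, 29.6 and 30.1 CPM in WT GMP and 45.5, 33.8 and 65.2 CPM in WT CMP. It stood 10.8-fold higher in MEP than in GMP (log2 3.43 ± 0.19, adjusted p = 2.6e-10) and 7.12-fold higher than in CMP (2.83 ± 0.18, 3.34e-09). Its call in GMP against CMP (-0.60 ± 0.17, 0.019) was lost with only those groups in the fit (0.0618), without WT GMP replicate 1 (0.0724) and without WT CMP replicate 3 (0.113). Of the 3 CMP libraries, replicate 3 was the highest.

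Ppox, the next step, had 155, 143 and 137 CPM in WT MEP, 53.9, 63.0 and 53.3 CPM in WT GMP and 70.3, 65.9 and 70.3 CPM in WT CMP. Fech (chr18:64452914-64490251), which sets in the iron, had 161, 143 and 174 CPM in WT MEP, 38.6, 34.9 and 38.9 CPM in WT GMP and 43.2, 38.1 and 52.1 CPM in WT CMP. Both were higher in every MEP library than in any other progenitor library. Ppox changed by 1.36 ± 0.08 in MEP over GMP (4.36e-10) and by 1.21 ± 0.08 over CMP (2.94e-09). Fech changed by 2.09 ± 0.11 (2.04e-10) and 1.98 ± 0.11 (7.95e-10). Neither passed the test in GMP against CMP, where 12.5% of genes were called higher and 12.3% lower. The changes were -0.14 ± 0.08 for Ppox (0.207) and -0.11 ± 0.11 for Fech (0.522), and Ppox passed when scaled by library totals only (-0.28, 0.0147) or without WT GMP replicate 2 (-0.24, 0.0389). The B4galt3 annotation overlaps the 3′ end of Ppox but none of its introns.

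Mitoferrin-1 ran against the enzymes. Slc25a37 (chr14:69241848-69285112) had 5.14, 5.23 and 5.91 CPM in WT MEP, 10.6, 10.7 and 10.8 CPM in WT GMP and 8.54, 8.71 and 7.27 CPM in WT CMP. MEP was the lowest type, by -0.97 ± 0.12 against GMP (adjusted p = 4.06e-06) and by -0.45 ± 0.12 against CMP (0.00506), a call that was lost with only those groups in the fit (0.0674). GMP stood above CMP by 0.52 ± 0.12 (0.00417). These values count spliced reads of 2 introns, and most reads at intron 2 were unspliced, as described further on. Slc25a28, the paralogous mitoferrin-2, was lower in MEP than in GMP by -0.43 ± 0.12 (0.00617) and did not pass the test in MEP against CMP (-0.14, 0.358).

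Levels per listed intron set genes side by side only roughly, since rarely used, alternative and retained introns count as much as others. Over all libraries Slc25a37 introns 2 and 3 averaged 81.6 and 294.9 spliced reads, and intron 1 of Fech-209 averaged 1.11. On this scale Cpox led in WT MEP at 51.9 CPM per intron, before Alad at 40.0, Urod at 37.5, Fech at 14.5 and Ppox at 12.1. Uros followed at 6.31, Alas1 at 3.33, Slc25a37 at 2.71 and Alas2 at 0.485. In WT GMP, Alas1 led at 63.8 CPM per intron, ahead of Urod at 8.84 and Alad at 5.70. Alas1 stood seventh of 9 in MEP and first in GMP, Cpox stood first in MEP and had 4.82 CPM per intron in GMP, and Alas2 was last in both.

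MEF had less of most members than the mean of the progenitors. Against the mean of WT CMP, GMP and MEP, 8 of 9 were lower in WT MEF and none was higher, where 29.4% of 19544 genes were called lower and 38.9% higher. The median log2 change was -0.90 over the members and 0.17 over all genes, and DESeq2 scaling moved that over all genes to 0.32 with the same 8 members lower. Alad fell furthest, with 37.8, 32.9 and 32.6 CPM in WT MEF and a change of -2.01 ± 0.10 (adjusted p = 1.2e-12). Cpox followed at -1.47 ± 0.15 (3e-08), Alas2, with under 2 CPM in every MEF library, at -1.20 ± 0.30 (0.00138), Urod at -1.15 ± 0.07 (3.8e-11) and Ppox at -0.90 ± 0.08 (3.88e-09). The smaller changes were -0.70 ± 0.14 for Slc25a37 (0.000137), -0.69 ± 0.11 for Uros (1.69e-05) and -0.65 ± 0.11 for Alas1 (2.75e-05). That mean joins unlike types. Alas1, at 63.0, 74.2 and 81.2 CPM in WT MEF, lay above every WT MEP library and overlapped with WT CMP. Only WT GMP lay wholly above it. Uros, at 19.3, 16.7 and 18.9 CPM in WT MEF, overlapped with WT GMP. Cpox averaged 24.6 CPM in WT MEF and 28.9 CPM in WT GMP.

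Fech was the 1 member not called lower against that mean. It had 68.2, 63.7 and 65.3 CPM in WT MEF, above every GMP and CMP library and below every MEP library. Its change of 0.19 ± 0.09 missed the threshold (0.0643) and passed it with relative log expression (RLE) scaling (0.33, 0.00138) and with DESeq2 (0.33, adjusted p = 0.000308). It also passed with no filter (0.03), the median intron count (0.0203), only the groups compared (0.0414) and on leaving out WT CMP replicate 3, WT GMP replicate 2 or WT MEP replicate 2 or 3 (0.0279 to 0.0388). MEF and progenitors differ in tissue and culture as well as in cell type, and the parts these play cannot be told apart.

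Other genes of heme and iron handling were counted from a list of 32. In MEP over CMP 27 were higher and 2 lower, where 21.2% and 25.5% of all genes were, with a median of 1.03 against -0.05 over all genes. Nfs1, the cysteine desulfurase of iron-sulfur assembly, was higher by 1.12 ± 0.07 (edgeR adjusted p = 1.27e-09), and Blvrb, a biliverdin reductase, by 3.19 ± 0.21 (3.34e-09). The 2 that were lower were Ncoa4, the ferritin receptor of autophagy (-1.65 ± 0.09, 3.84e-10), and Hmox1, which breaks heme down (-2.72, named after its value was seen). In MEP over GMP 25 were higher and 3 lower, where 21.1% and 24.8% of all genes were, with Slc11a2, an iron transporter, at 2.61 ± 0.14 (1.2e-10) and Ncoa4 at -2.18 ± 0.09 (7.82e-12).

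In GMP against CMP the list split, with 8 higher and 7 lower, where 12.5% and 12.3% of all genes were, and a median of -0.03. Abcb10, a mitochondrial transporter that binds mitoferrin-1 in mouse cells, was higher by 0.77 ± 0.11 (9.1e-05), and Blvrb was lower by -3.11 ± 0.22 (3.37e-08). In MEF against progenitors 8 were higher and 16 lower, where 38.9% and 29.4% of all genes were. Hmox1 was at 190 CPM on average in WT MEF and at 0.461, 1.27 and 3.34 CPM in WT MEP, GMP and CMP (7.41 ± 0.30, 4.77e-14), and Ftl1, the ferritin light chain, was higher by 2.32 ± 0.14 (1.4e-11).

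The genes whose mean levels over 10 groups were most like those of Alas2 were Huwe1, Slc25a15, Scrn2, Supt5 and Cnot10, with Pearson correlations of 0.956 to 0.967 on log2(CPM + 0.5). Those most like Slc25a37 were Mrpl33, Sgo2a, Tspoap1, Nkg7 and Slc25a12, at 0.985 to 0.995. Both sets are drawn from 9894 genes with a mean of at least 5 CPM, and the groups share cell types and kits. Alas2 itself, with group means of 0.443 to 4.37 CPM, fell below that cut and was kept by name. At such levels the 0.5 added weighs on its correlations.

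Loss of Zrsr2 left no called change in the members. By edgeR 0 of 9 passed in KO against WT in CMP, GMP, MEP, MEF and control-hairpin Lin-Kit+ cells, and DESeq2 also called 0 in each. The genes called by edgeR made up 0.0228% in CMP, 0.0171% in GMP, 0.0456% in MEP and 0% in MEF and in Lin-Kit+ cells, and those called by DESeq2 0.285%, 0.12%, 0.456%, 0.0717% and 0.135%. At an unadjusted p under 0.05 stood 1 member, Alas1 in CMP, and none in the other cell types. Over all genes tested, 1039 of 17563 stood there in CMP, 448 in GMP and 775 in MEP. In MEF 265 of 16735 did, and in Lin-Kit+ cells 158 of 17828. In MEF and in Lin-Kit+ cells edgeR did not call Zrsr2 itself either (adjusted p = 1 in both), which DESeq2 did (0.00177 in MEF and 0.00749 in Lin-Kit+ cells).

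Alas1 had 107, 98.6 and 91.2 CPM in KO CMP, against 80.3, 92.8 and 68.5 CPM in WT CMP, with 1 WT library inside the KO range. Its change was 0.29 ± 0.11 (unadjusted p = 0.0189, adjusted 0.819). The KO effect on Alas1 in MEP minus that in CMP was -0.34 ± 0.15 (unadjusted p = 0.0411, adjusted 0.837), and 0 members passed in that difference or in MEP minus GMP, where 0.0114% of genes did in each.

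In MEP, where the enzymes are highest, the genotypes overlapped for most. Cpox had 271, 271 and 331 CPM in KO MEP, against 301, 295 and 337 CPM in WT MEP (-0.12 ± 0.17). Fech had 149, 143 and 159 CPM in KO MEP, against 161, 143 and 174 CPM in WT MEP (-0.11 ± 0.11). Uros had 54.8, 53.2 and 58.5 CPM in KO MEP, against 61.5, 55.4 and 72.6 CPM in WT MEP (-0.21 ± 0.13). For these 3 genes the libraries of both genotypes ran into each other, and adjusted p was 1 for each. Between libraries of the same number KO was below WT in all 3 for these genes, though the sample titles name no pairs of mice. With the number as a block the changes were -0.13 for Cpox, -0.11 for Fech and -0.21 for Uros, again with an adjusted p of 1. Of the 9 members 8 had a negative estimate, the largest that of Alas2 at -0.48 ± 0.34, with a median of -0.10 against -0.01 over all genes. Ppox had 143, 138 and 144 CPM in KO MEP, against 155, 143 and 137 CPM in WT MEP. Its SE was 0.08 on the log2 scale (-0.06 ± 0.08).

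In MEF, Uros had 24.8, 20.6 and 20.4 CPM in KO, against 19.3, 16.7 and 18.9 CPM in WT, without overlap, and its change of 0.28 ± 0.12 did not pass (adjusted p = 1). In CMP its estimate had the other sign (-0.27 ± 0.13, 0.835), with 21.8, 20.2 and 22.1 CPM in KO CMP against 24.6, 28.1 and 23.8 CPM in WT CMP, again without overlap. In GMP of both genotypes the libraries of Uros overlapped. None of the 32 genes of the heme and iron list was called in any comparison of genotypes.

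Hairpins against Zrsr1 were tested as the mean of sh1 and sh10 over the control hairpin. By edgeR without a block 0 of 9 members passed in WT or in KO Lin-Kit+ cells, where 0% of 17828 genes did. Each comparison held 1 member at an unadjusted p under 0.05, Ppox, where 1325 of all genes stood in WT and 1285 in KO. DESeq2 called 0 members in WT and 1 in KO (Ppox, 0.40, adjusted p = 0.0496), with 2.2% and 2.19% of all genes. Libraries of the same experiment deviated together, and with the experiment as a block 8.75% of genes were called in WT and 9% in KO. Of the members, 2 then passed in WT and 3 in KO.

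Cpox was lower with the hairpins in the fit with the experiment block. In experiments 1 and 2 it had 27.5 and 14.6 CPM with sh1, 17.9 and 8.72 CPM with sh10 and 29.3 and 20.7 CPM with the control hairpin in KO cells. In WT cells it had 27.0 and 15.7 CPM with sh1, 18.3 and 9.85 CPM with sh10 and 32.1 and 23.5 CPM with the control hairpin. All 8 hairpin libraries lay below the control of their genotype and experiment, and sh10 lay below sh1 in each. With the experiment block the change was -0.55 ± 0.14 in KO (adjusted p = 0.0392) and -0.62 ± 0.14 in WT (0.0245), and without the block -0.52 ± 0.31 (0.769) and -0.59 ± 0.31 (0.755). Urod also lay below its own control in all 8 hairpin libraries, and did not pass with the block (-0.21 in KO, 0.189, and -0.09 in WT, 0.621).

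Ppox moved the other way in that fit. It had 79.2 and 60.6 CPM with sh1, 54.7 and 39.5 CPM with sh10 and 48.9 and 43.2 CPM with the control hairpin in KO cells. In WT cells it had 62.2 and 54.3 CPM with sh1, 57.1 and 47.2 CPM with sh10 and 50.3 and 41.4 CPM with the control hairpin. Of the 8 hairpin libraries 7 lay above their own control, and the KO library with sh10 in experiment 2 lay below it. With the block the change was 0.39 ± 0.10 in KO (0.0382) and 0.37 ± 0.10 in WT (0.0457), and without it 0.39 ± 0.14 (0.597) and 0.37 ± 0.14 (0.594).

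Alas1 had 342 and 221 CPM with sh1, 323 and 185 CPM with sh10 and 408 and 313 CPM with the control hairpin in KO cells. In WT cells it had 358 and 242 CPM with sh1, 440 and 332 CPM with sh10 and 425 and 345 CPM with the control hairpin. It lay below its own control in all 4 hairpin libraries in KO and in 3 of 4 in WT. With the block the change in KO was -0.37 ± 0.09 (0.0387; without it -0.36 ± 0.20, 0.742). The difference between the hairpin effects in KO and WT passed for no member, with or without the block (Alas1 -0.29 ± 0.14 with it, adjusted p = 1).

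Marker genes of other cell types differed in summed level between hairpins, though edgeR without a block called none of them in either genotype. Granulocyte-monocyte progenitor genes summed to 3109 to 4948 CPM with sh1, 2178 to 4757 with sh10 and 5668 to 7226 with the control hairpin in KO cells, and to 3490 to 5195, 3520 to 5296 and 6212 to 7204 CPM in WT cells. Mature neutrophil genes were at 5358 to 7339 CPM with sh1, 9520 to 22247 with sh10 and 3374 to 8649 with the control hairpin in KO cells, and at 4520 to 5345, 12500 to 29031 and 4720 to 5596 CPM in WT cells. Late erythroid genes were at 169 to 560 CPM with sh1, 6.05 to 40.1 with sh10 and 21.3 to 161 with the control hairpin in KO. Their part in the changes of Cpox, Ppox and Alas1 was not tested. Experiment 2 differed from experiment 1 in read patterns too, with 24.6 to 31.0% of introns read at 1 end only, against 7.86 to 12.8% in experiment 1.

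**Figure D2:**
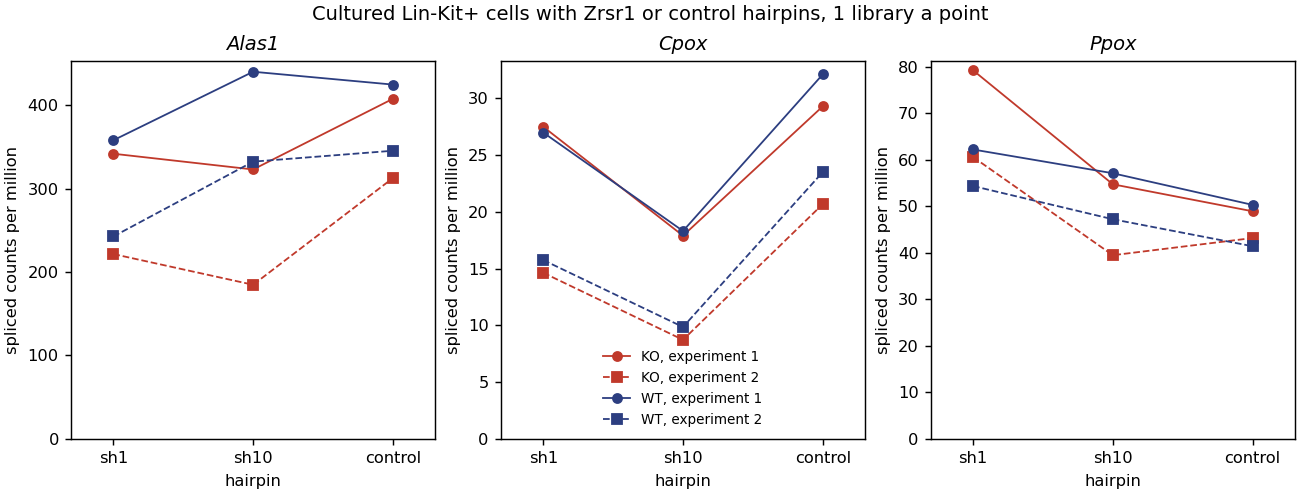
CPM of Alas1, Cpox and Ppox in Lin-Kit+ cells with sh1, sh10 and the control hairpin, by genotype and experiment; each point is 1 library. Cpox lies below its own control in all 8 hairpin libraries, and Ppox above it in 7 of 8.

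Intron retention was read as the authors' percent, 100 times the reads at both exon-intron boundaries over those plus 2 times the spliced reads. Among introns with a mean of at least 20 reads, 6 of 71 member introns (8.45%) averaged 30% or more over all libraries, where 2241 of 122487 introns (1.83%) did. The medians were 2.75% for member introns and 1.36% for all. Of the 6, 4 were introns of Ppox, 1 of Slc25a37 and 1 of Fech. The Fech intron is a rarely used junction that skips an exon, as described further on. Of 23972 introns of at most 300 bases, 1.94% stood at 30% or more, with a median of 2.08%.

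In Ppox the retention followed a pattern along the gene. Introns 3, 4, 5 and 7 averaged 46.5%, 35.7%, 55.4% and 41.2%, while intron 6 (chr1:171279314-171279429, 116 bases), between them, averaged 0.067%. Intron 6 had 0 to 6 boundary reads in a library, against 109 to 1216 spliced reads. Each of the 4 is held whole by an annotated retained-intron transcript.

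**Figure D3:**
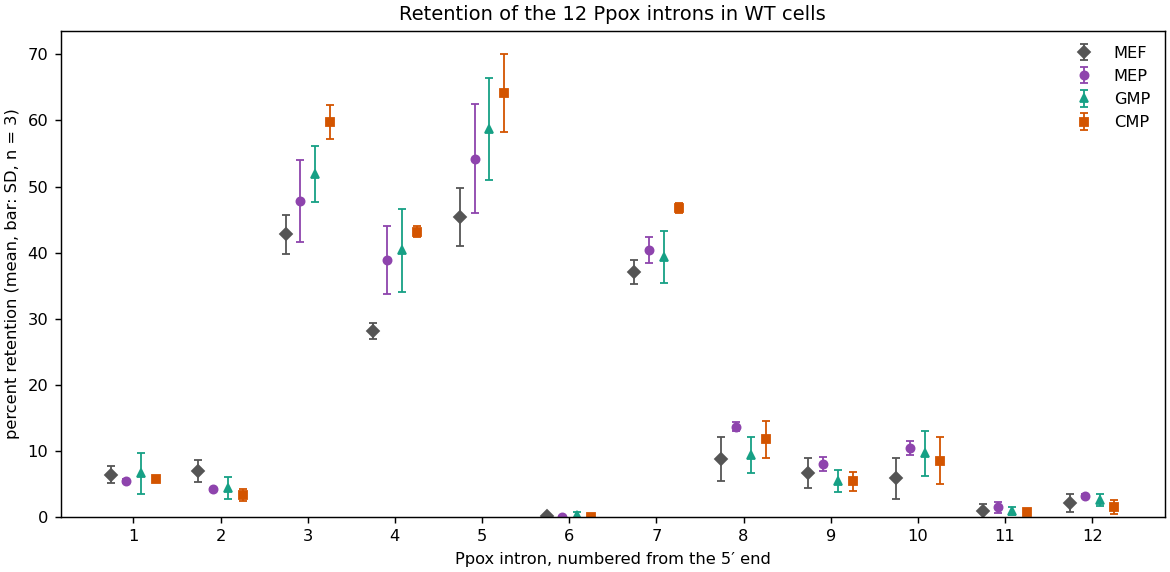
Retention in percent (vertical axis) of the 12 Ppox introns (horizontal axis, in transcript order) in WT MEF, MEP, GMP and CMP, as means with SD (n = 3 each). Introns 3, 4, 5 and 7 stand apart from the others in each cell type, and intron 6 is near 0.

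Ppox intron 5, the most retained, had 44.3%, 41.6% and 50.3% in WT MEF, 58.8%, 59.1% and 44.8% in WT MEP, 50.5%, 60.1% and 65.7% in WT GMP and 70.7%, 62.3% and 59.5% in WT CMP. Intron 3 averaged 42.7% ± 3.02 in WT MEF, 47.8% ± 6.17 in WT MEP, 51.9% ± 4.22 in WT GMP and 59.7% ± 2.57 in WT CMP (SD, n = 3 each). Intron 4 averaged 28.2% ± 1.21, 38.9% ± 5.15, 40.3% ± 6.25 and 43.2% ± 0.872 in those groups, and intron 7 averaged 37.1% ± 1.86, 40.4% ± 2.01, 39.3% ± 3.96 and 46.7% ± 0.73. CMP had the highest mean in each of the 4 introns and MEF the lowest, but none was called between progenitor types (intron 3 in MEP against CMP, log2 ratio -0.70 ± 0.34, edgeR diffSpliceDGE adjusted p = 0.245). The share of boundary reads among boundary and spliced reads of all introns also differed. It was 3.14 to 3.32% in WT MEF, 4.15 to 5.07% in WT MEP, 4.69 to 5.08% in WT GMP and 4.73 to 5.55% in WT CMP. Its part in the order of the Ppox introns was not tested.

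Slc25a37 intron 2 was mostly unspliced wherever it was read. It had 87.3%, 85.2% and 73.2% in WT MEF, 66.4%, 58.5% and 57.3% in WT MEP, 67.5%, 69.8% and 71.3% in WT GMP and 80.8%, 69.0% and 78.8% in WT CMP. The WT MEP libraries lay below all WT GMP and CMP libraries, yet the change in MEP against CMP did not pass (-1.07 ± 0.38, adjusted p = 0.0867), nor did that against GMP (-0.56 ± 0.38, 0.773). Intron 3 had the other order, with 14.9% ± 3.02 in WT MEF, 27.6% ± 2.69 in WT MEP, 21.6% ± 2.44 in WT GMP and 18.6% ± 3.71 in WT CMP. In MEF the counts were small, with 23, 31 and 42 spliced reads at intron 2 in WT.

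Fech and Uros each had an intron with boundary reads mostly at its 3′ end. Intron 1 of Fech-201, 10130 bases, averaged 30.2%, from 39 reads at its 5′ end and 471 at its 3′ end over 859 spliced reads. The covered fraction of its length was 0.5005. It spans introns 1 and 2 of Fech-205 and the exon between them, and shares its outer ends with them. Those introns averaged 0.539% and 2.97% retention, with 198.6 and 302.1 spliced reads per library, against 23.9 for intron 1 of Fech-201. Its percentage thus rests on a rarely used junction that skips an exon. Intron 1 of Uros-203 (chr7:133702470-133708923), in the 5′ UTR, had 9.40%, 14.5% and 23.2% in WT MEP, 0.535%, 0.592% and 0.498% in WT GMP and 2.96%, 2.76% and 0% in WT CMP. In WT MEP 9 reads lay at its 5′ end and 166 at its 3′ end. The internal RefSeq start printed above, at base 133702500, lies 30 bases inside that 3′ end. Reads from such a start would be counted as boundary reads there, and the part of this in the percentage was not tested.

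That Uros intron was the 1 of 58 member introns called in MEP against CMP (log2 ratio 3.46 ± 0.90, edgeR diffSpliceDGE adjusted p = 0.0315), where 0.226% of introns were called higher and 0.404% lower. The call was lost with limma (0.143), with the mouse as a block (0.0798), without WT MEP replicate 2 (0.0842) or 3 (0.3) and without any 1 of the WT CMP libraries (0.0581 to 0.1). Against GMP the change was 4.44 ± 0.90 (0.000478, limma 0.042, block 0.00225). The KO libraries, which share the fit but are not in these contrasts, had 14.9%, 12.5% and 14.1% in MEP, 0.926%, 1.46% and 2.19% in GMP and 1.79%, 0% and 4.76% in CMP, with MEP again above both other types without overlap. Uros intron 7 (chr7:133690594-133691085) was the most retained Uros intron, at 20.9% on average, and was called in no comparison.

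Some Alas1 introns were called between progenitor types, with most unspliced RNA in GMP, but none of these calls held with limma. Intron 8 (chr9:106236709-106238074), the most retained of the gene, averaged 6.37% ± 4.36 in WT MEP, 18.03% ± 1.68 in WT GMP and 12.98% ± 0.473 in WT CMP (SD, n = 3 each). In MEP against GMP 2 member introns were called lower, intron 8 (-1.90 ± 0.47, adjusted p = 0.00154, limma 0.097) and intron 2 (-3.72 ± 1.01, 0.0321, limma 0.225), where 0.258% of introns were called lower and 0.223% higher. Without WT MEP replicate 2 the change of intron 8 was -1.34 (0.14), and the call of intron 2 was lost on leaving out any 1 library of the compared groups (0.0769 to 0.184). Intron 2 averaged 18.7 boundary reads per library over all cell types and 0.371% retention, and Alas1 was far lower in MEP than in GMP. With few boundary reads, the size of a change depends on the 0.5 added to each count. In GMP against CMP 3 Alas1 introns were called higher, and 0 lower, where 0.0529% of introns were higher and 0.0288% lower: intron 7 of Alas1-202 (1.80 ± 0.48, 0.0223, limma 0.322), intron 6 (1.31 ± 0.38, 0.0264, limma 0.38) and intron 3 (3.15 ± 0.70, 0.00396, limma 0.214). All 3 calls were lost without WT CMP replicate 1 (intron 3 at 2.40, 0.0583), and those of introns 6 and 7 also without WT CMP replicate 3 or WT GMP replicate 2 or 3. None of the 3 passed with limma.

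In MEF against progenitors 11 member introns were called lower and 1 higher of 58 tested, where 12.7% of introns were called lower and 2.16% higher. The median log2 ratio change was -0.33 over the members and -0.42 over all introns. The 1 called higher was Slc25a37 intron 2 (1.06 ± 0.42, adjusted p = 0.0195, limma 0.118), and intron 3 of that gene was lower (-0.72 ± 0.27, 0.0203, limma 0.0575). Ppox introns 4 (-0.81 ± 0.24, 0.00852, limma 0.0236) and 5 (-0.81 ± 0.30, 0.014, limma 0.0882) were lower too. The others were 4 introns of Alas1 and 4 of Urod, led by Alas1 intron 10 (-2.52 ± 0.46, 2.51e-05, limma 0.000552) and Urod intron 2 (-2.94 ± 0.65, 0.00264, limma 0.00438). Slc25a37 intron 2 was lost without WT MEF replicate 4 (0.80, 0.201) or 5 (0.92, 0.15), and Slc25a37 intron 3 without replicate 4 (0.104) or 6 (0.186). Ppox intron 4 was lost without replicate 5 (0.0607) and intron 5 without replicate 4 (0.0645) or 5 (0.135). Urod introns 4 and 6 and Alas1 intron 5 were lost with limma (0.0958, 0.0749 and 0.211) and without most single libraries. Alas1 intron 9 was lost without WT MEP replicate 1 (0.171) or WT MEF replicate 4 (0.105) or 6 (0.206). Urod intron 5 was lost without WT MEF replicate 4 (0.0659). With the less covered boundary in place of both, Urod intron 2 (0.0825) and Alas1 intron 9 (0.0589) were lost.

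**Figure D4:**
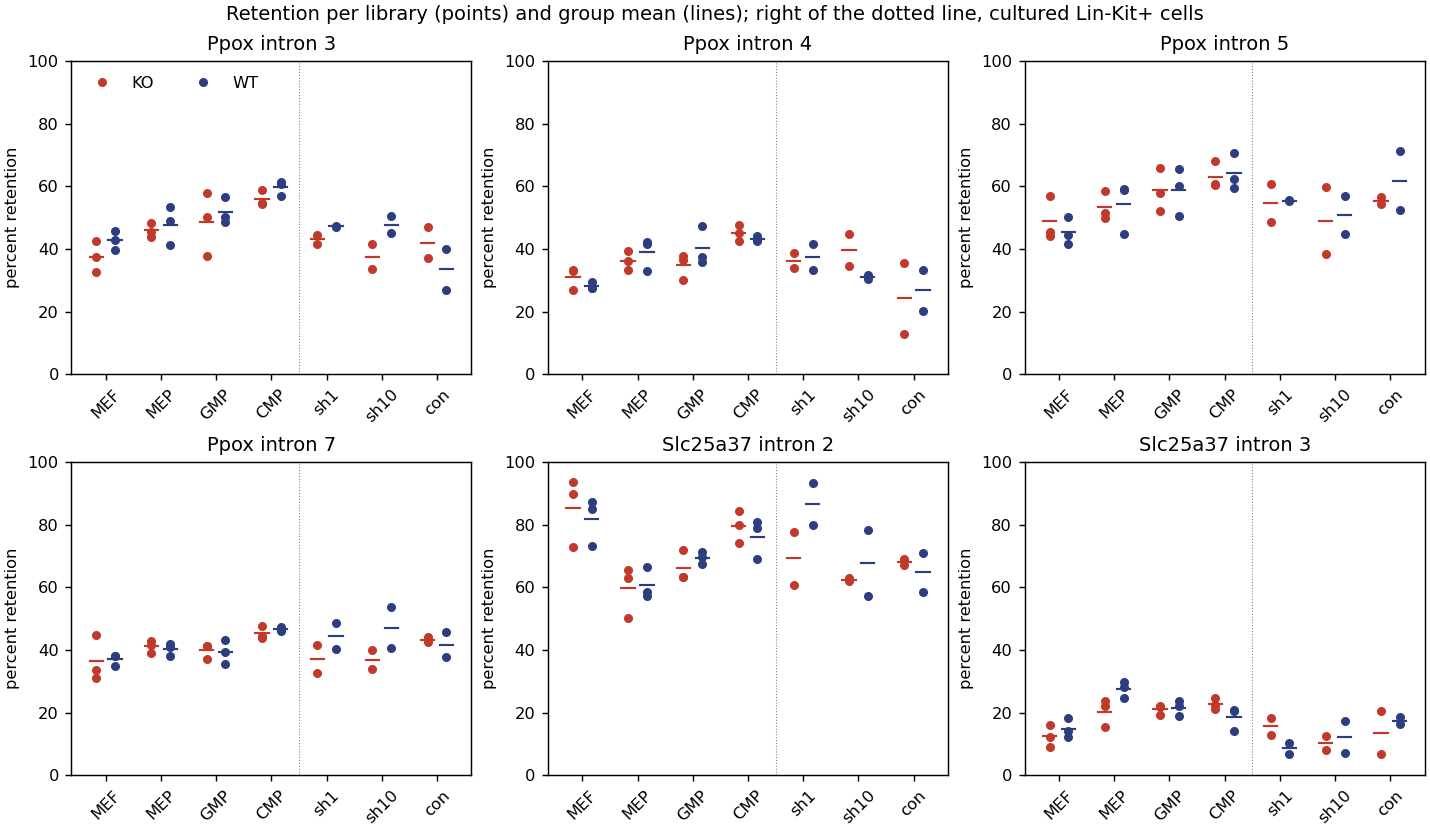
Retention in percent of Ppox introns 3, 4, 5 and 7 and Slc25a37 introns 2 and 3 in every library, by cell type and genotype, with KO left of WT; Lin-Kit+ groups are right of the dotted line. Slc25a37 intron 2 is above 50% in every library, and no difference between KO and WT passed the test.

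Zrsr2 loss and the hairpins called no member intron. By edgeR 0 of 58 member introns passed in progenitors, 0 of 32 in MEF and 0 of 41 in Lin-Kit+ cells, and limma also called 0. All introns called by edgeR made up 0.00641% in CMP, 0.00801% in GMP, 0.00481% in MEP and 0% in MEF and Lin-Kit+ cells, and by limma 0.00801%, 0.00481%, 0.0192%, 0% and 0%. In the KO effect in MEP minus that in CMP, 0 member introns were called, where 0.0016% of introns were. At an unadjusted p under 0.05 stood 6 member introns in CMP, 1 in GMP, 2 in MEP, 2 in MEF, 0 in control-hairpin Lin-Kit+ cells and 1 in each hairpin comparison. Over all introns tested, 3844 of 62434 stood there in CMP, 1690 in GMP and 2529 in MEP, and 1397 of 32573 in MEF. In Lin-Kit+ cells 586 of 46630 did with the control hairpin, and 565 to 1329 in the hairpin comparisons. Ppox intron 5 averaged 53.3% in KO MEP and 54.2% in WT MEP, 58.7% in KO GMP and 58.7% in WT GMP, 63.0% in KO CMP and 64.2% in WT CMP, and 48.8% in KO MEF and 45.4% in WT MEF. Slc25a37 intron 2 averaged 59.7% ± 8.23 in KO MEP and 60.8% ± 4.94 in WT MEP. The nearest to a difference in MEP was Slc25a37 intron 3, with 15.3 to 23.6% in KO MEP and 24.6 to 29.9% in WT MEP, without overlap (-0.60 ± 0.32, unadjusted p = 0.0288, adjusted p = 1).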

How the data were processed

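The deposited tables list, for each library and intron, whole-number counts of reads at both exon-intron boundaries and of reads spliced across it, the fraction of the intron covered and a percent of retention, per the file headers. The percent equals 100 times boundary reads over boundary reads plus 2 times spliced reads in every library. The submitters' processing notes name the build mm10. Aligner, counter and strand setting: not given in the sources used here, so reads from antisense and overlapping genes cannot be separated. Poly(A) RNA was prepared with TruSeq (progenitors, MEF) or NEBNext Ultra (Lin-Kit+ cells), per the labels' protocols, so MEF and progenitors were compared and Lin-Kit+ levels were not tested against them.

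All introns matched GENCODE M21, 1887 of them in more than 1 gene. A read over several introns counts at each, so only the spread between libraries gives the precision of a gene's sum. The share of introns read at 1 end only, among those with at least 20 boundary reads, was 7.44 to 17.2% in progenitors and 10.1 to 13.0% in MEF. No libraries of a group held identical counts. P-values cover only the spread of these libraries. The labels do not say whether the Lin-Kit+ experiments used separate mice.

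Spliced counts summed per gene were tested with edgeR 4.0.16 (TMM, filterByExpr, quasi-likelihood, Benjamini-Hochberg over all genes, threshold 0.05) in R 4.3.3, fitting each group's mean. The SE printed for a gene was derived as its absolute log2 change over the square root of the quasi-likelihood F statistic. Introns were tested with diffSpliceDGE on boundary and spliced counts. Their changes are differences of mean log2((boundary + 0.5)/(spliced + 0.5)), with SE from limma 3.58.1. Alternatives included DESeq2 1.42.0, limma, other scalings and filters, left-out libraries and blocks. The scripts were tested on simulated data. The tables were read and drawn with Python 3.11.15, pandas 2.3.3 and matplotlib 3.10.9.

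Members, gene lists, markers and tests were chosen with earlier results of these data known. Every member was named, with its most retained intron and every intron called, and up to 4 called genes of the pathway list per comparison, those with the smallest adjusted p; some of these are not reported here. In Lin-Kit+ cells, deviations from the group means were shared within an experiment (correlations 0.502 to 0.600 over 30 pairs), so the experiment pairs them. With 2 libraries in a group their deviations mirror each other. Each correlation is thus counted in both experiments, and the 30 are not independent. Libraries of a mouse across progenitor types come from the same animal (correlations of their deviations -0.0635 to 0.144 over 18 pairs). Same-numbered KO and WT libraries correlated at 0.172 to 0.276 in MEP. In the other cell types they correlated from -0.271 to 0.653 (MEF), -0.0204 to 0.125 (GMP) and 0.0627 to 0.152 (CMP). The sample titles number the libraries but name no pairs of KO and WT. The 3 progenitor types come from the same mice, so a pairing would hold in all 3, and these correlations do not settle it. Fits with the number as a block are therefore alternatives only.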

Additional observations from a re-analysis of the deposited data

How the results depend on the processing

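Of 29 member changes called at the gene level, all kept their direction and call under DESeq2, RLE scaling, library totals, the median intron count and no filter, 27 did with only the groups compared, 21 of 21 with the mouse as a block, and 220 of 222 on leaving out 1 library. None of these, and none of 19 called intron changes, turned round. In Lin-Kit+ cells the experiment block (replicate block) moved the members called for hairpins over control to 2 in WT and 3 in KO, both at 0 without it, and DESeq2 to 1 in KO. The blocks on same-numbered KO and WT libraries, whose pairing is not settled, changed no call of a member. No paired analysis was possible because MEF and progenitor libraries share no replicate numbers, for the comparison of these 2. Introns depended more on the method. In MEP against CMP 1 was called, and 0 with limma, with a filter on spliced counts only and with the mouse block, and 0 to 1 on leaving out a library. In MEP against GMP 3 were called, 1 with limma, and 1 to 3 on leaving out a library. In GMP against CMP 3 were called, 0 with limma, and 0 to 3 on leaving out a library. In MEF against progenitors 12 were called, 7 with limma, and 6 to 11 on leaving out a library. The cause was not tested. Of the 19 called intron changes, 10 of 17 kept their call with the less covered boundary in place of both, and 15 of 19 with the filter on spliced counts. Low counts limit Alas2, whose introns could not be read for retention, and Slc25a37, read through 2 introns.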
